A study of Mus musculus with 12 samples.

Results

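Hif1a and 9 genes that textbooks list as targets of the hypoxia-inducible factors were followed in the livers of mice given concanavalin A (Con A) with or without human mesenchymal stem cells. The 10 genes were Hif1a, Slc2a1, Slc16a3, Ldha, Vegfa, Egln3, Ndrg1, Bnip3, Adm and Ankrd37. They were taken by symbol from the deposited liver table, and 10 of 10 were found among its 11289 genes. They come from a named list and not from a threshold on measured values. Every gene of the table reaches a value of 64 in at least 2 mice, and Slc16a3, Adm and Ankrd37 do so only in mice given Con A.

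The livers came from 12 C57BL/6J mice in 3 groups of 4, and no genetic change was named for any group. Con A is a T cell mitogen from plants that injures the mouse liver. It was injected once into the tail vein at 15 mg/kg in 8 of the mice. After 30 min, 4 of them received PBS (the group labelled Con A, called Con A + PBS here) and 4 received MSCs intravenously (Con A + MSCs). The remaining 4 were controls, and what they received is not given in the sources used here. Livers were taken after 24 h. The MSCs are named as hUC-MSCs in one label and as Wharton's jelly cells in another, and they are human cells placed in a mouse that has its own immune system. The labels give 2000000 cells per mouse and an age of 8 to 10 weeks, whereas the methods of the study give fewer cells and a lower age range. The comparisons ask what Con A changed in the liver at this time and what differed when MSCs followed it. Each value belongs to a different mouse, so the p-values rest on the spread between mice.

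The hypoxia-inducible factors are transcription factors made of an oxygen-regulated alpha subunit, such as the product of Hif1a, and a stable beta subunit encoded by Arnt. When oxygen is plentiful, prolyl hydroxylases mark the alpha subunit for destruction by the von Hippel-Lindau complex, and when oxygen is scarce or inflammatory signals are strong, the alpha subunit persists and switches on genes for glucose uptake, glycolysis, lactate export and vessel growth. Most of this control acts on the protein, so the RNA level of Hif1a does not measure the activity of the factor.

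The deposited values are whole numbers that had already been normalized between mice, so a difference is relative to the other genes of the same liver and the sequencing depth is unknown. Totals lay between 17649654 and 17657159 in the 12 mice, and 82.1% of the ranked values were the same in every mouse. The same number can therefore recur in different genes and mice, as 9880 does for Ldha and Hif1a. Fold changes were computed as differences of log2(value + 1), which understates the change of low genes such as Slc16a3 or Ankrd37 in controls. A gene was called when its Benjamini-Hochberg adjusted p by limma over all 11289 genes was below 0.05 and its fold change above 1.5. In bulk liver, fewer cells of a type and less RNA per cell cannot be told apart, and values of different genes were not compared as levels because they were not scaled by length.

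After Con A + PBS, 9 of the 10 genes rose above control, where 19.5% of all genes were called up, and Vegfa did not pass the test. The changes of these 9 ran from 0.88 for Bnip3 to 5.66 for Slc16a3 on the log2 scale. Of these 9, Slc16a3, Adm and Ankrd37 are in the table only through Con A mice, so their rise is not independent of being there. In Con A + MSCs livers, 5 genes were lower than in Con A + PBS livers, beside 4.38% of all genes, namely Hif1a itself, the glucose transporter Slc2a1, the lactate exporter Slc16a3, the prolyl hydroxylase Egln3 and the peptide hormone gene Adm. Their log2 changes ran from -2.44 to -1.51. Against control, Slc2a1, Slc16a3, Ldha and Ankrd37 were still raised in Con A + MSCs livers, beside 13.6% of all genes, while Vegfa was below control, beside 13.1%. The difference between the Con A groups was called only while certain single mice stayed in the fit, as given after the single genes.

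**Figure D1:**
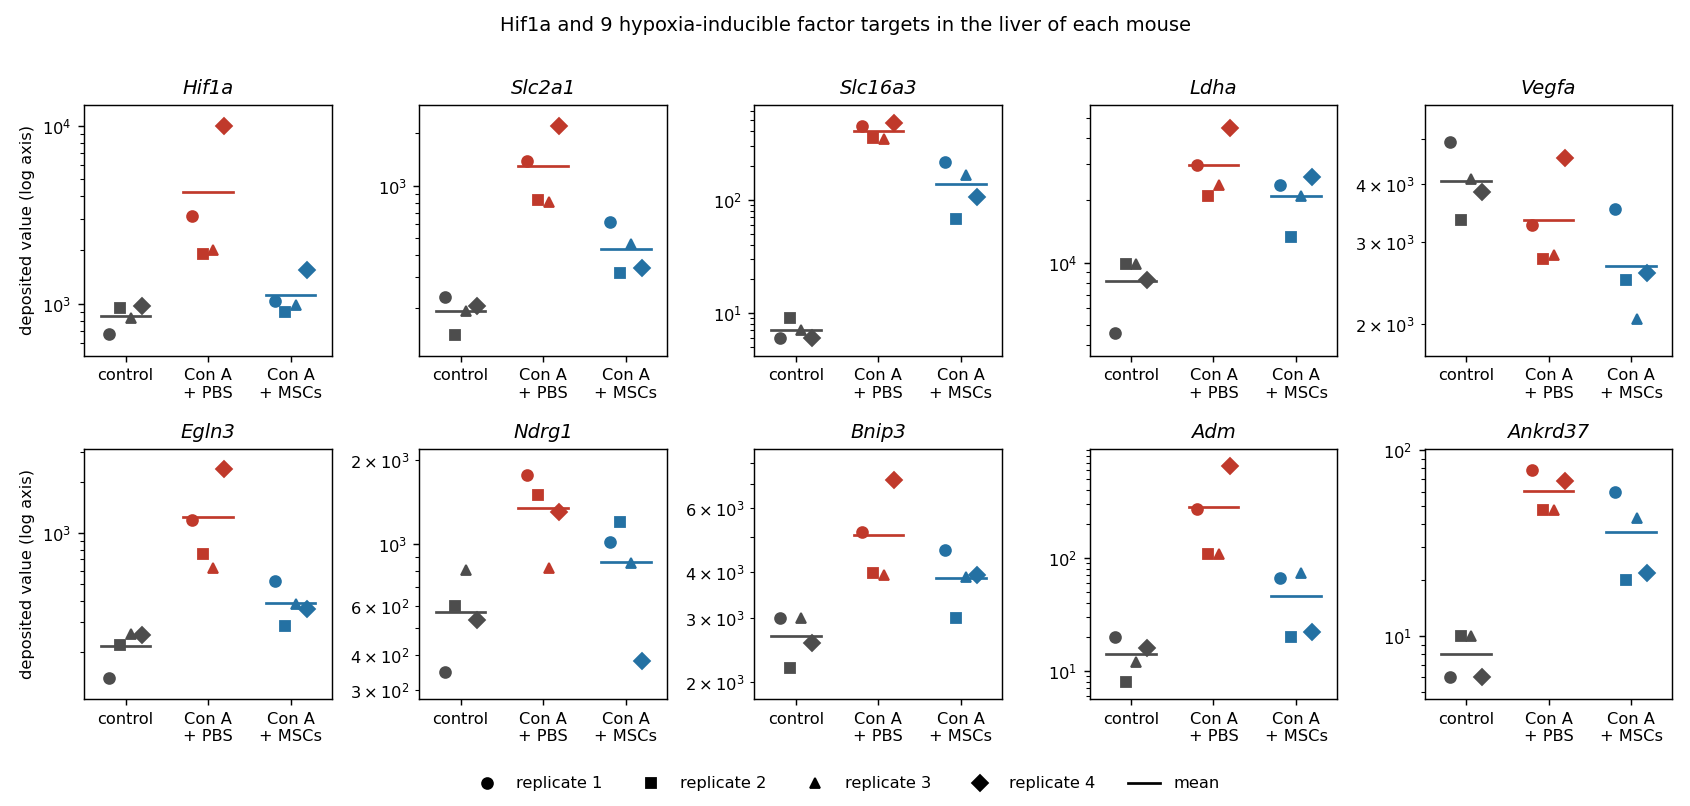
Each panel shows the deposited value of 1 gene on a log axis of its own, with 1 point for each of the 4 mice in the control (grey), Con A + PBS (red) and Con A + MSCs (blue) groups, a marker shape for each replicate number and a line at the group mean. In 9 panels every red point lies above every grey point, and Vegfa is the exception. In the panels of Hif1a, Slc2a1, Slc16a3, Egln3 and Adm every blue point lies below every red point.

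The factor binds DNA at the core letters ACGTG or GCGTG, so the 250 bases upstream of the RefSeq start site were searched for them on both strands (CACGTG holds ACGTG on each strand). RefSeq promoters of GRCm38.p6 were matched by symbol for 9 of the 10 genes in 11 windows, and all 9 had a match in at least 1 window. Of all 32851 RefSeq promoter windows of this length, 38.6% held a match, with 16.6% for ACGTG, 28.2% for GCGTG and 6.02% for the palindrome CACGTG. The genes were chosen as known targets of the factor, so a share above this background is not independent of their choice. Windows are shown for 4 of the genes that were lower with MSCs, followed by the window of Vegfa whose RefSeq start lies nearest to the deposited start site, in which these letters were not found. Capitals mark the matches, and the sequences are those of the gene's own strand.
Hif1a, chr12:73907617-73907866, plus strand: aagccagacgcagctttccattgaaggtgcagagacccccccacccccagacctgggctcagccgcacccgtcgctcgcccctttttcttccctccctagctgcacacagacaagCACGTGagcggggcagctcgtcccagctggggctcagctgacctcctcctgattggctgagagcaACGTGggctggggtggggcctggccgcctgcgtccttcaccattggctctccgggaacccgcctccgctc
Slc16a3, chr11:120948817-120949066, plus strand: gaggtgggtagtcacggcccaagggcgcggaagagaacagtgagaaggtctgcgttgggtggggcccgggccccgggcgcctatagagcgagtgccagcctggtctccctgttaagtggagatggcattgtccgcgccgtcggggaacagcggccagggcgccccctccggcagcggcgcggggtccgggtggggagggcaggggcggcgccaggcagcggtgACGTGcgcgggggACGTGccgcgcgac
Egln3, chr12:54203875-54204124, minus strand: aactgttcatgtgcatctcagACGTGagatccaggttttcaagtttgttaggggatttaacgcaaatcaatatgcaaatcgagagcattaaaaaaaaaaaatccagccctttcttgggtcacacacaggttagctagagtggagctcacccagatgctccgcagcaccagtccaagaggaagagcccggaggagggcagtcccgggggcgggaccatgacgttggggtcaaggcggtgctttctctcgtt
Adm, chr7:110627407-110627656, plus strand: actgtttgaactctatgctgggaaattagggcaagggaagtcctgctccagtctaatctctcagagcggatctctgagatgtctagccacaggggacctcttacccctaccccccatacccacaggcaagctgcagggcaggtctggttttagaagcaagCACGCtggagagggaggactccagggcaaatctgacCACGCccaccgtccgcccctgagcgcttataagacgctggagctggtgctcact
Vegfa, chr17:46032378-46032627, minus strand: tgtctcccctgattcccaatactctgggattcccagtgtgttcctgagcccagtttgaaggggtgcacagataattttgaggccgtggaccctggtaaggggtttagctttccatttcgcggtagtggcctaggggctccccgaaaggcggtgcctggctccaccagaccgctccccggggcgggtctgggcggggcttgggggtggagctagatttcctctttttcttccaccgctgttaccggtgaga

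The Hif1a window holds 1 palindrome and 1 further ACGTG, Slc16a3 holds 2 copies of ACGTG within the last 27 bases before the start, and Adm holds 2 copies of GCGTG read on the opposite strand. The single match of Egln3 begins 229 bases upstream. The Slc2a1 window, which is not printed, holds 1 copy of each core, beginning 61 and 36 bases upstream of the RefSeq start. Its last 34 bases belong to the first exon of the deposited transcript. The RefSeq start lies downstream of the deposited one by 6492 bases for Hif1a and by 587 for Slc16a3, so their printed windows lie inside the deposited transcripts. For Vegfa a further RefSeq start inside the gene has 2 matches in its window. Windows of genes not called between the Con A groups held matches too. With overlapping matches counted once, there were 4 in Bnip3, 3 in Ankrd37, and 3 and 1 in the windows of Ldha. A match therefore does not set the genes lower with MSCs apart. These matches describe letters and no binding was measured.

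Hif1a encodes the alpha subunit itself. The deposited transcript spans chr12:73901375-73947530 on the plus strand of GRCm38 with 15 exons. Its values were 674, 948, 838 and 969 in the control livers. In Con A + PBS livers they were 3091, 1893, 2014 and 9880, and in Con A + MSCs livers 1034, 903, 982 and 1541. The Con A + PBS mice did not overlap either of the other groups, and the fourth of them stood far above the other 3, whereas the Con A + MSCs and control mice overlapped. Hif1a rose by 1.95 ± 0.41 (SE) on the log2 scale after Con A + PBS, a 3.87-fold difference (limma adjusted p = 0.00169, n = 4 per group). Without the fourth Con A + PBS mouse this rise was 1.42 (limma adjusted p = 0.000200). With MSCs Hif1a was 3.01-fold lower than with PBS (log2 fold change -1.59 ± 0.41, limma adjusted p = 0.0332), and -1.06 without the same mouse (limma adjusted p = 0.0342). The difference between Con A + MSCs and control was 0.36 with a 95% interval from -0.54 to 1.26 (limma adjusted p = 0.515). Gm49321 overlaps Hif1a on the same strand and Gm15283 runs antisense to it, and the library kit is described without strand, so reads of such pairs cannot be told apart.

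The next genes belong to glucose uptake and lactate. Slc2a1 encodes GLUT1, a glucose transporter of most cell types that mature hepatocytes use little. It lies at chr4:119108711-119137330 on the plus strand with 10 exons. Its values were 231, 140, 192 and 204 in control, 1386, 826, 806 and 2196 in Con A + PBS livers and 619, 314, 464 and 336 in Con A + MSCs livers. The 3 groups stood apart from each other, with the Con A + MSCs mice between the others. Slc2a1 rose 6.30-fold after Con A + PBS (log2 2.65 ± 0.31, limma adjusted p = 2.45e-05) and was 2.86-fold lower with MSCs than with PBS (log2 -1.51 ± 0.31, limma adjusted p = 0.0223). It remained 2.21-fold above control in Con A + MSCs livers (log2 1.14 ± 0.31, limma adjusted p = 0.0115). Gm12867 and Gm12868 lie antisense to it.

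Slc16a3 encodes MCT4, which exports lactate from glycolytic cells (chr11:120948480-120958775, plus strand, 6 exons). In control livers it was very low, at 6, 9, 7 and 6. It reached 450, 352, 340 and 476 in Con A + PBS livers and 214, 68, 165 and 106 in Con A + MSCs livers. Again the 3 groups did not overlap, with the Con A + MSCs mice between the others. Slc16a3 is in the table only through Con A mice, so its rise over control is not independent of being there. The rise after Con A + PBS was 50.7-fold, the largest of the 10 genes, and the difference from control was still 16.1-fold in Con A + MSCs livers (limma adjusted p = 8.68e-08 and 1.58e-06). These folds of Slc16a3 depend on the pseudocount: with 10 in place of 1, the log2 differences from control fell from 5.66 to 4.60 and from 4.01 to 3.02, the former still the largest of the 10 genes. Between the Con A groups it was 3.15-fold lower with MSCs (log2 -1.65 ± 0.30, limma adjusted p = 0.0188).

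Ldha encodes the lactate dehydrogenase subunit that favours the conversion of pyruvate to lactate (chr7:46841475-46851994, plus strand, 6 exons). Its values were 4570, 9880, 9880 and 8248 in control, 29712, 20917, 23652 and 44696 in Con A + PBS livers and 23652, 13253, 20917 and 25838 in Con A + MSCs livers. Both Con A groups lay above control without overlap, and they overlapped each other. Ldha rose 3.66-fold after Con A + PBS (log2 1.87 ± 0.30, limma adjusted p = 0.000252) and was 2.60-fold above control in Con A + MSCs livers (log2 1.38 ± 0.30, limma adjusted p = 0.00336). The difference between the Con A groups, -0.49 with a 95% interval from -1.14 to 0.17, did not pass the test (limma adjusted p = 0.267). GENCODE M21 also lists pseudogenes of Ldha, and RSEM, which the submitters' processing notes name, divides shared reads among the transcripts of its reference by a statistical model. Whether that reference held these pseudogenes is not given in the sources used here, so the value of Ldha is uncertain to that extent.

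Egln3 encodes the prolyl hydroxylase PHD3, which is induced by the factor and acts back on its alpha subunits (chr12:54178981-54203860, minus strand, 5 exons). The control livers gave 140, 219, 256 and 252. The Con A + PBS livers gave 1195, 756, 625 and 2366, and the Con A + MSCs livers gave 522, 286, 382 and 358. The groups did not overlap in any of the 3 comparisons. Egln3 rose 5.08-fold after Con A + PBS (log2 2.34 ± 0.36, limma adjusted p = 0.000157) and was 2.84-fold lower with MSCs than with PBS (log2 -1.51 ± 0.36, limma adjusted p = 0.0268). Although all 4 Con A + MSCs mice lay above the control mice, that difference was 0.84 with a 95% interval from 0.07 to 1.61 and was not called (limma adjusted p = 0.0774).

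Vegfa and Adm encode secreted factors of vessels. Vegfa, the main growth factor for endothelial cells (chr17:46016993-46031815, minus strand, 6 exons), had values of 4920, 3354, 4097 and 3854 in control, 3260, 2753, 2816 and 4548 in Con A + PBS livers and 3532, 2492, 2053 and 2572 in Con A + MSCs livers. The groups overlapped in every comparison, and the fourth Con A + PBS mouse was again the highest of its group. Vegfa differed from control by -0.30 after Con A + PBS (95% interval -0.72 to 0.13, limma adjusted p = 0.215) and between the Con A groups by -0.33 (95% interval -0.75 to 0.10, limma adjusted p = 0.253). It was the only one of the 10 genes called below control in Con A + MSCs livers, by 1.54-fold (log2 -0.62 ± 0.20, limma adjusted p = 0.0230). This call of Vegfa was lost without the first control mouse or without the third Con A + MSCs mouse, and the adjusted p reached 0.0750.

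Adm encodes adrenomedullin, a peptide that widens vessels (chr7:110627661-110629820, plus strand). Its values were 20, 8, 12 and 16 in control livers. They were 270, 108, 108 and 651 in Con A + PBS livers and 66, 20, 74 and 22 in Con A + MSCs livers. The Con A + PBS mice did not overlap the others, and among the Con A + MSCs mice replicates 2 and 4 were close to control while replicates 1 and 3 were well above it. Adm rose 15.0-fold after Con A + PBS (log2 3.90 ± 0.59, limma adjusted p = 0.000160) and was 5.42-fold lower with MSCs than with PBS (log2 -2.44 ± 0.59, limma adjusted p = 0.0280). Adm is in the table only through Con A mice, so this rise is not independent of being there. With a pseudocount of 10 the rise of Adm was 3.26 on the log2 scale. Without the fourth Con A + PBS mouse the difference of Adm between the Con A groups was -1.90 and no longer called (limma adjusted p = 0.0611). Con A + MSCs differed from control by 1.47 with a 95% interval from 0.18 to 2.75 (limma adjusted p = 0.0660). Gm28863 lies antisense to Adm, and its deposited transcript was not matched in GENCODE M21, so no exon number is given.

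The last group holds genes of cell stress. Bnip3 encodes a protein of the outer mitochondrial membrane that takes part in mitophagy and cell death (chr7:138890836-138909506, minus strand, 6 exons). Its values were 2990, 2192, 2990 and 2565 in control, 5161, 3996, 3936 and 7164 in Con A + PBS livers and 4594, 2990, 3881 and 3936 in Con A + MSCs livers. The Con A + MSCs mice shared values with both other groups. Bnip3 rose 1.84-fold after Con A + PBS, the smallest rise called among the 10 genes (log2 0.88 ± 0.20, limma adjusted p = 0.00238). The difference with MSCs was -0.37 against PBS (95% interval -0.80 to 0.06, limma adjusted p = 0.204) and 0.52 against control (95% interval 0.09 to 0.94, limma adjusted p = 0.0537), and neither was called. Gm45507 lies antisense to Bnip3.

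Ndrg1 encodes a protein of the N-myc downstream-regulated family that is induced by stress and iron depletion (chr15:66929321-66969640, minus strand, 16 exons). It had values of 346, 597, 804 and 535 in control, 1762, 1494, 822 and 1300 in Con A + PBS livers and 1014, 1201, 853 and 380 in Con A + MSCs livers. The highest control mouse, at 804, was just below the lowest Con A + PBS mouse, at 822, and the Con A + MSCs mice spanned both. Ndrg1 rose 2.37-fold after Con A + PBS (log2 1.24 ± 0.36, limma adjusted p = 0.0100). It differed with MSCs by -0.71 against PBS (95% interval -1.48 to 0.06, limma adjusted p = 0.176) and by 0.54 against control (95% interval -0.23 to 1.31, limma adjusted p = 0.246). Gm17035 lies antisense to it.

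Ankrd37, an ankyrin repeat gene known as a direct target of the factor (chr8:45996902-45999867, minus strand, 5 exons), was low in every mouse. Its values were 6, 10, 10 and 6 in control, 78, 48, 48 and 68 in Con A + PBS livers and 60, 20, 43 and 22 in Con A + MSCs livers. Both Con A groups lay above control and overlapped each other. Ankrd37 reaches 64 only in Con A + PBS mice, so it is in the table only through them and its rise is not independent of that. Ankrd37 rose 6.85-fold after Con A + PBS (log2 2.78 ± 0.40, limma adjusted p = 0.000104) and was 3.85-fold above control in Con A + MSCs livers (log2 1.94 ± 0.40, limma adjusted p = 0.00228). With a pseudocount of 10 these log2 differences of Ankrd37 were 1.95 and 1.28, and both passed the test. The difference between the Con A groups was -0.83 with a 95% interval from -1.70 to 0.03 (limma adjusted p = 0.157). The gene overlaps Ufsp2 and Lrp2bp on the opposite strand.

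**Figure D2:**
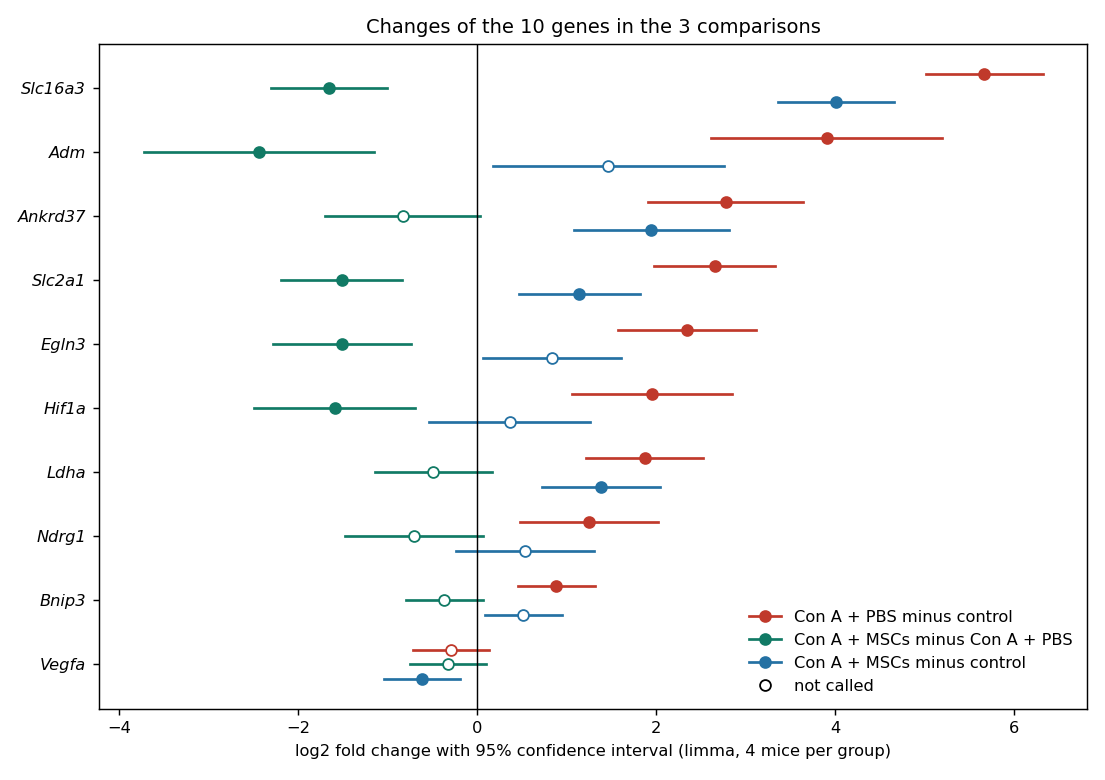
The log2 fold change of each of the 10 genes is drawn with its 95% interval from limma (4 mice per group) for Con A + PBS minus control (red), Con A + MSCs minus Con A + PBS (green) and Con A + MSCs minus control (blue), with open points where a gene was not called. All 10 green points lie left of 0, 5 of them filled, and the red points lie right of 0 except that of Vegfa at -0.30.

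Over the 10 genes, 9 were called up and 0 down in Con A + PBS versus control, where 19.5% of all genes were called up, 19.2% down and 38.8% either way. The same 9 did not overlap between these groups, against 27.1% of all genes with the 4 Con A + PBS mice above the 4 control mice. Slc16a3, Adm and Ankrd37, counted among them, are in the table only through Con A mice. The median log2 fold change was 2.15 over the 10 genes and 0.05 over all genes. In Con A + MSCs versus Con A + PBS, 5 were called down and 0 up, beside 4.38% of all genes called down and 4.2% called up, and those 5 were also the ones without overlap, beside 11.6%. The median was -1.17 over the 10 genes and 0.00 over all genes, and all 10 changes were below 0, of which 5 did not pass the test. In Con A + MSCs versus control, 4 were called up and 1 down, beside 13.6% and 13.1% of all genes, and 5 lay above control without overlap, beside 20.6%, with a median of 0.99 against 0.04 for all genes. The first 2 comparisons share the Con A + PBS mice, so a high value in those mice moves a gene up in one and down in the other.

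For these 9 genes the rises after Con A + PBS were called in each of the 12 fits that left out 1 mouse. The calls between the Con A groups depended on single mice. Without the first Con A + PBS mouse none of Hif1a, Slc2a1, Slc16a3, Egln3 and Adm was called (limma adjusted p from 0.0696 to 0.0832), when only 7 genes of the whole table were. The same held without the second Con A + MSCs mouse (limma adjusted p from 0.0609 to 0.0960, 18 genes called) and without the third (limma adjusted p from 0.0547 to 0.0832, 7 genes called). Their log2 changes in these 3 fits still lay between -2.75 and -1.36. With only the 8 mice of the Con A groups in the fit, 3 of the 5 were called, and Hif1a (limma adjusted p = 0.0651) and Adm (limma adjusted p = 0.0511) were not.

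The 10 genes were high or low together in some mice. The fourth Con A + PBS mouse held the highest value of its group in 8 of the 10 genes, with a median deviation of 0.60 from the group means on the log2 scale, and the first was highest in the other 2, Ndrg1 and Ankrd37. The third Con A + PBS mouse was lowest or tied for lowest in 7 genes and the second in 5. In the Con A + MSCs group the first mouse was highest in 6 genes and the second lowest in 8. These orders are descriptions within groups of 4.

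Each gene was also set against a relative of its family in the same liver, as the difference of their log2 values. Since the genes differ in length, only changes of this difference between groups were read. Pairs with both genes in the table numbered 7, and 21 tests were made (two-sided exact permutation tests of 4 mice against 4, whose smallest possible p is 0.0286), with Benjamini-Hochberg adjustment over the 21. Of these, 14 had an adjusted p of 0.0429, which is what complete separation of the groups gave, with 5 after Con A + PBS, 5 between the Con A groups and 4 between Con A + MSCs and control. No share over other pairs of genes was computed, so these counts have no background beside them.

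Hif1a rose more than Epas1, which encodes the related HIF-2 alpha subunit, with a change of their difference of 1.32 after Con A + PBS and -1.22 with MSCs against PBS (exact permutation p = 0.0286 for each, adjusted p = 0.0429). Without the fourth Con A + PBS mouse these changes of Hif1a against Epas1 were 0.79 and -0.69. Between Con A + MSCs and control the change was 0.10 and the groups overlapped (exact permutation p = 0.629). Epas1 itself went from 3015 ± 1178 (SD, n = 4) in control to 4397 ± 228 in Con A + PBS livers, a log2 change of 0.63 (limma adjusted p = 0.0388), and was 3461 ± 744 in Con A + MSCs livers. The rise of Epas1 was not called in 6 of the 12 fits that left out 1 mouse, including each fit without 1 Con A + PBS mouse (limma adjusted p up to 0.113).

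The largest change of balance was between the glucose transporters. Slc2a2 encodes GLUT2, the glucose transporter of mature hepatocytes, and moved opposite to Slc2a1. Its values were 3280 ± 715 in control, 344 ± 177 in Con A + PBS livers and 956 ± 329 in Con A + MSCs livers (SD, n = 4 each), a fall of 3.36 after Con A + PBS (limma adjusted p = 5.81e-06) and a rise of 1.55 with MSCs against PBS (limma adjusted p = 0.0225), which was lost in 3 of the 12 fits without 1 mouse. The difference Slc2a1 minus Slc2a2 changed by 6.01 after Con A + PBS, by -3.06 with MSCs against PBS and by 2.95 with MSCs against control (exact permutation p = 0.0286 for each, adjusted p = 0.0429). In these ratios the groups did not overlap in any comparison.

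Slc16a3 moved further than Slc16a1, which encodes the widely expressed lactate transporter MCT1. Slc16a1 itself rose by 1.51 after Con A + PBS (limma adjusted p = 1.03e-06). The difference Slc16a3 minus Slc16a1 changed by 4.16 after Con A + PBS, by -1.07 with MSCs against PBS and by 3.08 with MSCs against control (exact permutation p = 0.0286 for each, adjusted p = 0.0429). With a pseudocount of 10 in place of 1, the first and last were 3.10 and 2.09, since Slc16a3 is near 0 in control.

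Egln3 also moved further than Egln1, the prolyl hydroxylase PHD2 that sets the basal level of the alpha subunits, by 1.76 after Con A + PBS, -0.92 with MSCs against PBS and 0.84 with MSCs against control (exact permutation p = 0.0286 for each, adjusted p = 0.0429). Egln1 changed by 0.58 and -0.58 in the first 2 comparisons, below the fold limit for a call. Ndrg1 and Ndrg2, a relative that is abundant in liver, moved apart, with changes of 3.01, -1.58 and 1.43 (exact permutation p = 0.0286 for each, adjusted p = 0.0429). Ndrg2 fell by 1.77 after Con A + PBS (limma adjusted p = 4.76e-05) and rose by 0.87 with MSCs against PBS (limma adjusted p = 0.0328), a call lost in 4 of the 12 fits without 1 mouse.

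Vegfa against Vegfb, its relative that binds VEGF receptor 1, changed by 0.07, -0.12 and -0.05, and the groups overlapped in the 3 comparisons (exact permutation p of 0.686 or more). Bnip3 against Bnip3l, the related mitophagy receptor NIX, changed by 0.16, 0.15 and 0.31, also with overlap (exact permutation p from 0.143 to 0.343). With 4 mice per group these tests do not show that the relatives moved alike.

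**Figure D3:**
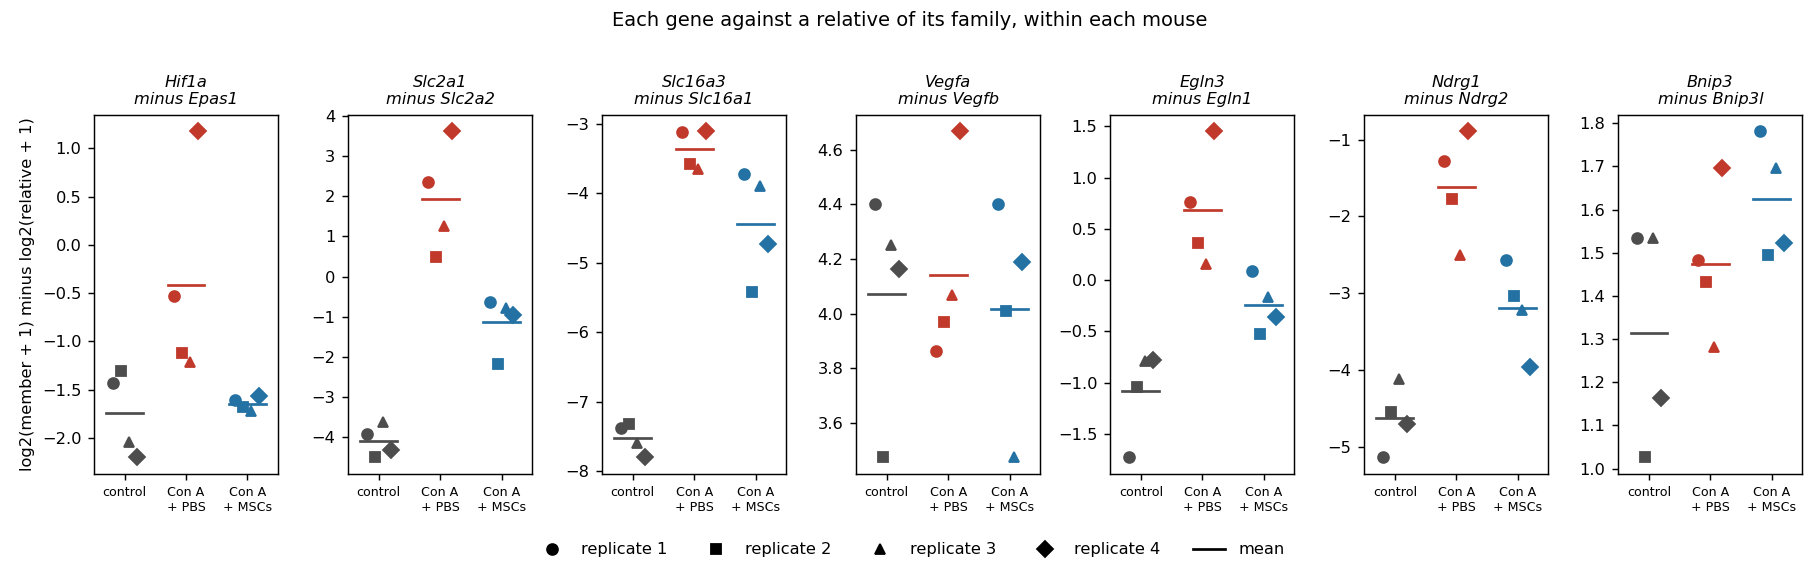
For each of the 7 pairs, the difference log2(gene + 1) minus log2(relative + 1) is plotted for each mouse in the control (grey), Con A + PBS (red) and Con A + MSCs (blue) groups, with a marker shape for each replicate number and a line at the group mean. Red points lie above grey and blue points in the pairs of Hif1a, Slc2a1, Slc16a3, Egln3 and Ndrg1, and the groups mix in those of Vegfa and Bnip3.

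The other genes of the pathway were counted in 4 lists, to be read beside the shares of all genes, which were 19.5% called up and 19.2% down after Con A + PBS and 4.2% up and 4.38% down with MSCs against PBS. Calls with MSCs depended on single mice here too. Targets below 64 in every control mouse, such as Nos2, are in the table only through Con A mice. The counts of rises are therefore not independent of which genes the table holds. The share of all genes at an unadjusted p below 0.05 is not given, so counts at that limit only describe the lists. Of 22 subunits and regulators of the factor, 20 were in the table. Of these, 6 rose and 0 fell after Con A + PBS, with a median log2 fold change of 0.22, and 1 fell and 0 rose with MSCs against PBS, with a median of -0.27. The 1 of 20 that fell is close to the share over all genes. At an unadjusted p below 0.05 by limma, 8 were higher and 2 lower after Con A + PBS, and 3 were higher and 5 lower with MSCs. The largest rises were in Gnb2l1, which encodes RACK1, a scaffold that can direct the alpha subunit to degradation (1.43, limma adjusted p = 3.38e-05), and in Stat3, a transcription factor of cytokine signalling (1.00, limma adjusted p = 0.00237). Cited2, whose product competes with the alpha subunit for the coactivator p300, rose by 0.94 after Con A + PBS (limma adjusted p = 0.00338) and fell by 0.77 with MSCs (limma adjusted p = 0.0437), a call lost in 7 of the 12 fits without 1 mouse. The beta subunit gene Arnt and the asparagine hydroxylase gene Hif1an were not called after Con A + PBS.

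Of 19 further targets in glycolysis, 16 were in the table, of which 12 rose and 3 fell after Con A + PBS, and 6 fell and 0 rose with MSCs against PBS. The medians were 1.43 and -0.58, and at an unadjusted p below 0.05 by limma 1 gene was higher and 11 were lower with MSCs. Pkm, the pyruvate kinase gene that gives rise to the M2 form, went from 320 ± 65.7 in control to 5160 ± 1041 in Con A + PBS livers and 2658 ± 815 in Con A + MSCs livers (SD, n = 4 each), with a rise of 4.01 after Con A + PBS (limma adjusted p = 9.17e-08). Pfkp, the platelet form of phosphofructokinase, rose by 2.98 (limma adjusted p = 1.37e-06) and changed by -1.41 with MSCs (limma adjusted p = 0.0174). Pfkfb3, which makes the activator of phosphofructokinase, changed by -1.44 with MSCs (limma adjusted p = 0.0390). With 1 mouse left out, Pfkp lost its call with MSCs in 3 of the 12 fits and Pfkfb3 in 6.

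The 3 glycolysis targets that fell after Con A + PBS were Pdk1, Pfkm and Aldoc. Pdk1, a kinase that inhibits pyruvate dehydrogenase, fell from 2011 ± 516 to 726 ± 93.1 (SD, n = 4; log2 -1.44, limma adjusted p = 3.86e-05) although it is a known target of the factor. Pfkm, the muscle form of phosphofructokinase, changed by -1.28 (limma adjusted p = 0.000109). Gapdh was the member of the list that was not called.

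Of 22 targets for vessels, matrix and secreted factors, 16 were in the table, of which 10 rose and 5 fell after Con A + PBS, and 7 fell and 0 rose with MSCs against PBS, with medians of 1.69 and -0.59. At an unadjusted p below 0.05 by limma, 2 were higher and 10 lower with MSCs. Nos2, the inducible nitric oxide synthase, was at 0 to 6 in control and 198 to 550 in Con A + PBS livers and changed by -2.59 with MSCs (limma adjusted p = 0.0324). Nos2 is in the table only through Con A mice, so its rise over control is not independent of being there. Igfbp1, a liver-made binding protein of insulin-like growth factors, rose from 2735 ± 1647 in control to 15298 ± 10520 in Con A + PBS livers (SD, n = 4; limma adjusted p = 0.00928) and changed by -2.71 with MSCs (limma adjusted p = 0.0327). With 1 mouse left out, Nos2 lost its call with MSCs in 4 of the 12 fits and Igfbp1 in 5.

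The 5 that fell were the endothelial receptors Kdr, Flt1 and Tek together with Cxcl12 and Igfbp3. Kdr, the main receptor of Vegfa on endothelial cells, fell by 2.52 (limma adjusted p = 4.85e-05), from 505 ± 101 to 93.5 ± 43.7 (SD, n = 4). Cxcl12, a chemokine of stromal and endothelial cells, fell by 1.19 (limma adjusted p = 0.00168). Markers of sinusoidal and vascular endothelium were counted as well. Of 8 in the table, 4 fell and 1 rose after Con A + PBS, beside 19.2% and 19.5% of all genes. The summed value of the 8 was 2163 to 3154 in control, 1271 to 1548 in Con A + PBS livers and 1295 to 1486 in Con A + MSCs livers. With MSCs against PBS, Lyve1 and Cdh5 fell and Stab2 rose among these 8. The part of these cells in the values of Kdr was not tested.

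Of 27 targets for stress, iron, mitochondria and feedback, 24 were in the table, of which 13 rose and 0 fell after Con A + PBS, and 7 fell and 0 rose with MSCs against PBS, with medians of 0.79 and -0.52. At an unadjusted p below 0.05 by limma, 17 were higher and 1 lower after Con A + PBS, and 1 was higher and 15 lower with MSCs. Anxa2, an annexin, rose by 3.33 (limma adjusted p = 6.18e-07) and Ero1l, an oxidase that helps proteins fold in the endoplasmic reticulum, by 2.30 (limma adjusted p = 9.32e-06). With MSCs against PBS, Anxa2 fell by 1.28 (limma adjusted p = 0.0188) and Bhlhe40, a transcriptional repressor, fell by 1.27 (limma adjusted p = 0.0484). With 1 mouse left out, Anxa2 lost this call in 3 of the 12 fits and Bhlhe40 in 9, among them fits without a control mouse. Trf, also counted there, went from the largest value of the table, 341028, in all 8 control and Con A + PBS mice to 147377 in all 4 Con A + MSCs mice. It is a step between shared top values rather than a measured fold.

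**Figure D4:**
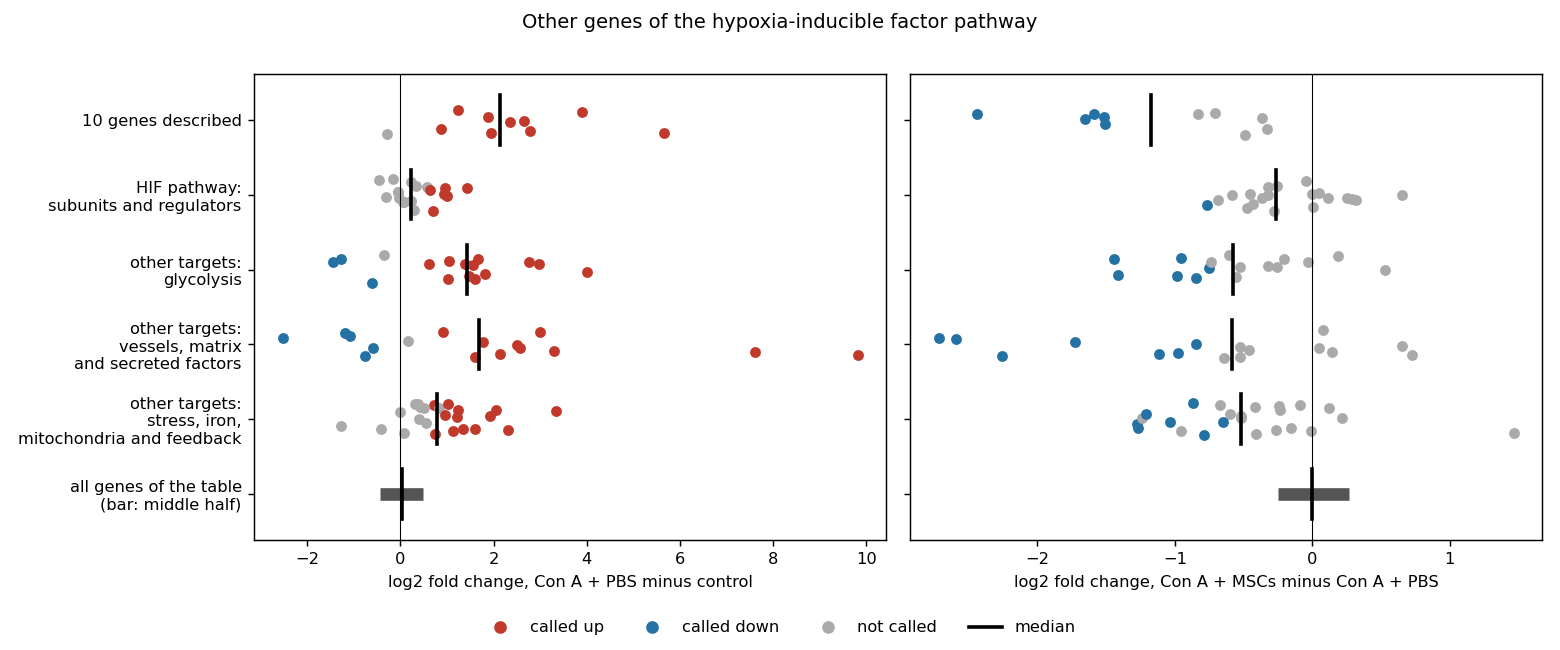
Each point is the log2 fold change of 1 gene for Con A + PBS minus control (left) and Con A + MSCs minus Con A + PBS (right), in the 10 genes described and the 4 other lists, coloured red where called up, blue where called down and grey where not called, with a black line at the median and, for all genes of the table, a bar from the lower to the upper quartile. The medians of the 4 other lists lie between 0.22 and 1.69 on the left and between -0.59 and -0.27 on the right, where no point is red.

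Markers of other cell types were counted too, to be read beside the 19.5% of all genes called up and 19.2% called down after Con A + PBS. Here too the share of all genes at an unadjusted p below 0.05 is not given. All 12 hepatocyte markers were in the table, and 5 fell and 0 rose after Con A + PBS by limma, also at an unadjusted p below 0.05. Their summed values were 1354789 to 1656782 in control, 1081630 to 1127207 in Con A + PBS livers and 911651 to 951435 in Con A + MSCs livers. These sums are held by a few markers at shared top values, and the lower sum with MSCs comes from the step of Trf between such values. Alb, Cps1 and Serpina1b, 3 of the 12, had the same value in all 8 Con A mice, so the list says little about hepatocyte RNA between the Con A groups. There Trf was the only one called, and at an unadjusted p below 0.05 by limma 2 were higher and 1 was lower.

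Of 11 neutrophil and monocyte markers in the table, 10 rose after Con A + PBS. S100a8, S100a9, Cxcr2, Retnlg, Ly6c1 and Ly6c2 lay below 64 in every control mouse and are in the table only through Con A mice. The count of 10 is therefore not independent of which markers the table holds. The sums of the 11 were 1379 to 5339 in control, 74762 to 342731 in Con A + PBS livers and 59680 to 75470 in Con A + MSCs livers. Most of each sum was Lcn2, which hepatocytes also make, and the highest sum belongs to the 1 mouse in which Lcn2 was at the largest value of the table. Between the Con A groups the median change of these markers was -0.08 and 0 were called by limma, with 0 at an unadjusted p below 0.05.

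Of 11 Kupffer cell and macrophage markers in the table, 10 fell and 1 rose after Con A + PBS, with sums of 5923 to 9545 in control, 1818 to 2710 in Con A + PBS livers and 915 to 2609 in Con A + MSCs livers. Of 12 T and NK cell markers only 4 were in the table, and all 4 rose after Con A + PBS. Each of the 4 lay below 64 in every control mouse and is in the table only through Con A mice. That all 4 rose is therefore not independent of their being there. The sums of the 4 were 31 to 66, 480 to 955 and 506 to 828 in the 3 groups, while Cd3e, Cd3d, Cd3g and Cd4 were not analysed here. All 5 erythroid markers in the table fell after Con A + PBS, as did Ighm, the B cell marker there. Of the 32 immune and erythroid markers, 0 were called with MSCs against PBS by limma and 3 had an unadjusted p below 0.05, beside 4.2% of all genes called up and 4.38% called down.

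Of 9 stellate cell and fibroblast markers, 3 fell and 0 rose after Con A + PBS, beside 19.2% and 19.5% of all genes, and 1 was higher at an unadjusted p below 0.05. Their sums were 5366 to 8568 in control, 6594 to 7693 in Con A + PBS livers and 4990 to 10858 in Con A + MSCs livers. With MSCs against PBS 0 were called by limma, and 4 were higher and 1 lower at an unadjusted p below 0.05. The part of any of these cells in the values of the 10 genes was not tested.

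The genes whose pattern over the 12 mice was most like that of each gene lower with MSCs were found by Pearson's r of the log2 values, as a description in which the 3 groups make up most of the variation. For Hif1a they were Prkar1a (r = 0.981), Ets2 (r = 0.976) and Tsc22d2, and for Slc2a1 they included Ddr1 and Nabp1 (0.987 and 0.984). Slc16a3 was most like Pkm, Gml and Icam1 (0.990 to 0.995). Egln3 was most like Tubb6, Tgm2 and Prkar1a (each 0.982), and Adm like Btc, Atf3 and Smox (0.978 to 0.985). Between 251 genes for Hif1a and 802 for Slc16a3 had an r above 0.9.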

How the data were processed

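Liver RNA of 12 mice was read from 1 deposited table with a column for each mouse, and columns were matched to groups by the sample titles. Per the submitters' processing notes, Bowtie2 2.2.1, RSEM 1.2.18 and mm10 were used. Per the labels, libraries were made from poly-A RNA. The deposited values are scores per gene, whole numbers that the authors had already normalized between mice in a way not given in the sources used here, so count tests were not run and depth is unknown. The values behave like quantile-normalized data: 10 genes share the largest value in each mouse, and each gene reaches 64 in at least 2 mice.

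On the scale of log2(score + 1), limma 3.58.1 (R 4.3.3; lmFit, then eBayes with trend) was run on the 12 mice together, no covariate added, with Benjamini-Hochberg adjustment over 11289 genes. Calls needed a fold change over 1.5 and an adjusted p under 0.05. Pairs were compared in Python 3.11.15 with scipy 1.17.1. Scripts were tested on simulated data. Named were the 10 genes, their relatives, per pathway list and direction the 2 called genes that changed most, and the 3 genes most like each gene called in both Con A comparisons; Gapdh, Aldoc, Flt1, Tek, Igfbp3, Arnt and Hif1an were named after their values were seen, as were the printed promoters and the marker genes singled out. The 10 genes and the lists were chosen with earlier results of these data known. Some genes that meet this rule are not reported here. Ldhb, the relative of Ldha, was not analysed here. Promoters came from RefSeq (GRCm38.p6) and positions from the deposited table (GRCm38).

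As alternatives, each mouse was left out in turn, the replicate number entered as a block, the pseudocount set to 10, low genes (mean under 100) removed, values centred on the median or quantile normalized, the trend dropped, the fit limited to the 8 mice compared, or the fold limit raised to 2.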

Additional observations from a re-analysis of the deposited data

Results flagged for a closer look

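Hif1a in the fourth Con A + PBS mouse, with a value of 9880, stood far from the other mice of its group, whose values were 1893, 2014 and 3091. The gap to the nearest mouse was 0.850 of the range of the group, above Dixon's 95% critical value for 4 samples. It was 1 of 30 groups tested, 3 for each of the 10 genes, and chance alone gives about 1 in 20. On the log2 scale 0 groups passed the same limit. The mouse was also the highest of its group in 7 of the other 9 genes.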

How the results depend on the processing

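No direction reversed under any alternative. In Con A + PBS versus control, 4379 genes and 9 of the 10 genes were called, with 4093 to 4575 and 9 to 9 when 1 mouse was left out. In Con A + MSCs versus Con A + PBS, 969 genes and 5 of the 10 were called, with 7 to 1575 and 0 to 5 when 1 mouse was left out: 7, 1575, 563 and 285 genes without Con A + PBS mouse 1, 2, 3 or 4, and 506, 18 and 7 without Con A + MSCs mouse 1, 2 or 3. Hif1a also lost this call without Con A + MSCs mouse 1 (limma adjusted p = 0.0670). In Con A + MSCs versus control, 3015 genes and 5 of the 10 were called, with 2654 to 3254 and 4 to 7; Egln3, Adm, Bnip3 and Ndrg1 were gained in some of these fits. A fold above 2 left 2391, 353 and 1539 genes in the 3 comparisons and dropped Bnip3 after Con A + PBS and Vegfa in Con A + MSCs versus control. With only the 8 mice compared, 3 of the 10 were called between the Con A groups, and Egln3 (limma adjusted p = 0.0153) and Adm (limma adjusted p = 0.0461) were gained in Con A + MSCs versus control. The replicate numbers belong to different animals. Same-numbered mice deviated together in 4 of 12 pairs (r above 0.1), among them the 3 pairs of number 4. For same-numbered pairs r ran from -0.118 to 0.375 with a median of 0.016. For other pairs it ran from -0.385 to 0.141 with a median of 0.003. Since not every same-numbered pair deviated together, the mice were not taken as paired. With the replicate block 4429, 1297 and 3080 genes were called, 9, 5 and 6 of the 10, the sixth being Adm in Con A + MSCs versus control (limma adjusted p = 0.0470). The filter on a mean of at least 100 left 9550 genes, without Ankrd37. Of the pair tests 14 were without overlap, and 14 to 15 when 1 mouse was left out, a count that cannot fall and so shows nothing about stability. The cause of these changes was not tested. Since depth is unknown, no counting error or floor is given for low genes such as Slc16a3, Adm and Ankrd37 in control livers.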
